A study of Mus musculus with 12 samples.

Results

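The genes described here are Jag1, Notch1, Notch2, Rbpj and Maml1, which encode a ligand, both of the tabulated receptors and a pair of nuclear proteins of the Notch pathway. They were taken by symbol, as a fixed list of 5 names, from a table of 11022 genes, and all 5 were present in it. Presence in the table was itself a readout, because the authors removed genes with low counts, and the list was drawn up with earlier results of these data known. Messenger RNA was measured by RNA sequencing in cultured P14 cytotoxic T lymphocytes (CTL), mouse CD8+ T cells that all carry 1 transgenic T cell receptor (TCR) for the viral peptide gp33, with 3 cultures in each of 4 groups. Cells came from lymph nodes or spleens of female mice aged 9 to 13 weeks. They were primed for 48 h with peptide, interleukin 2 (IL-2) and the cytokine IL-12, and expanded in culture to day 7 with IL-2. They then rested for 1 h in medium with IL-2 before the peptide. The unstimulated group received IL-2 at 20 ng/mL and no further peptide. The TCR group received the same IL-2 and gp33 peptide at 100 ng/mL for 4 h. The TCR+PI3Kdi group received these together with 10 µM IC87114, which blocks the lipid kinase PI3K p110δ. The TCR+MEKi group received them together with 2 µM PD184252, an inhibitor of MEK1/2, the kinases that activate ERK1/2. The vehicle for the inhibitors was DMSO. Every culture therefore held antigen-experienced cells in IL-2, and no group was naïve.

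Notch receptors are single-pass proteins of the cell surface that are activated by ligands of the Jagged and Delta-like families on a neighbouring cell. Binding exposes the receptor to ADAM proteases and then to γ-secretase, which frees its intracellular domain. That domain enters the nucleus, joins the DNA-binding protein RBPJ and recruits a Mastermind-like protein such as MAML1, turning a repressing complex into an activating one. In T cells the pathway is best known for directing thymic progenitors to the T lineage, and in CD8+ T cells it is known to favour effector differentiation. A transcript level reports neither surface receptor nor cleaved receptor, and none of these was measured here.

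Positions are on GRCm38 (mm10) from GENCODE M21. Jag1 lies on chromosome 2 (137081456 to 137116644, minus strand) and shared no exon sequence with another gene. Notch1 lies on the same chromosome and strand (26457903 to 26516663), and 8.44% of the 100-base stretches of its transcripts also occurred, on the other strand, in transcripts of 0610009E02Rik or Gm13568. Notch2 lies on chromosome 3 (98013527 to 98150361, plus strand) and shared 2.37% of such stretches with Gm42820 on its own strand. Rbpj lies on chromosome 5 (53466152 to 53657362, plus strand) and shared 8.14% with the pseudogene Rbpj-ps3. Maml1 lies on chromosome 11 (50255634 to 50292311, minus strand) and shared 0.67% with Gm26542 on the other strand. How the counting divided reads among these overlaps, and whether it used strand, is not stated, so the values of the latter 4 genes are uncertain to an extent that was not measured.

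The promoter windows of the 3 genes with a change described below are shown because transcript levels of each moved between the groups. Each runs from 250 bases before to 50 bases after a start site in RefSeq on GRCm38.p6, 5′ to 3′ on the gene's own strand. Capitals mark matches to TGGGAA, the core bound by RBPJ itself, and to TGGAAA, the core bound by NFAT, on either strand. The Jag1 window is chr2:137116471-137116770, the Notch1 window chr2:26503773-26504072 and the Rbpj window chr5:53590096-53590395, the more upstream of 2 Rbpj start sites in the sequence table. The Notch1 and Rbpj windows lie inside the gene spans given above, downstream of the 5′ ends of those spans. The sequence at those 5′ ends was not searched.
Jag1: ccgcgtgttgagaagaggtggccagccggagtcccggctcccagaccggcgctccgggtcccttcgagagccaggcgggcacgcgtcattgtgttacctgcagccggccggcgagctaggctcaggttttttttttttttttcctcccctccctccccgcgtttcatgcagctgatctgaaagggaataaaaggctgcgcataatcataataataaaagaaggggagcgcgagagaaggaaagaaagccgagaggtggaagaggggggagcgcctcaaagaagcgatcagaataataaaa
Notch1: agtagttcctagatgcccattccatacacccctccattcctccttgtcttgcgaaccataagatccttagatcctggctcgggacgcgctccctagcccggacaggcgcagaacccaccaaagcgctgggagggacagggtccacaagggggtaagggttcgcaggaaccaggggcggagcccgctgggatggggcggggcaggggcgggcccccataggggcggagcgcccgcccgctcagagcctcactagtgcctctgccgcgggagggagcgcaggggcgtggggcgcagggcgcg
Rbpj: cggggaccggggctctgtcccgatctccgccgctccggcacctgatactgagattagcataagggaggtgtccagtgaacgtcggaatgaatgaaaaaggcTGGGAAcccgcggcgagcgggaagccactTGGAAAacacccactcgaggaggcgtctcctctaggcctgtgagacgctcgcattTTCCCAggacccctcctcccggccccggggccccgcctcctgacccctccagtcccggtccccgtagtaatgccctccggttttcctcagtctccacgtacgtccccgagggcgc
The Rbpj window held 2 matches to TGGGAA and 1 to TGGAAA, and the Jag1 and Notch1 windows held neither. The window of the other Rbpj start site, chr5:53590236-53590535, overlaps the one shown and held 1 match to TGGGAA and 0 to TGGAAA. Of 32851 promoter windows of this length, 25.6% held TGGGAA and 21.4% held TGGAAA on some strand, so either match is common. None of the 3 windows held TGANTCA (AP-1, present in 7.81% of all windows), GCGTGGGCG (EGR, 0.612%), the NF-κB consensus (0.411%) or GTAAACA (FOXO, 3.65%). These are matches of letters and carry no measurement of binding.

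Peptide was followed by higher levels of 3 of the 5 genes at an adjusted p under 0.05 alone, which 68.6% of all genes passed in either direction. Jag1 went from a level at the limit of counting to a low but measurable one, Rbpj rose by 1.54 on the log2 scale, Notch1 rose within a 2-fold limit, and neither Notch2 nor Maml1 passed the test. Between stimulated groups, Jag1 fell with IC87114 and rose with PD184252. Changes were tested with limma on log2(FPKM + 0.1) over all 11022 genes and all 12 cultures, and calls needed both an adjusted p (Benjamini-Hochberg) under 0.05 and more than a 2-fold change. FPKM are fragment counts scaled by exon length and library size, so levels can be set side by side between genes. In TCR against unstimulated cultures 2 of the 5 genes were called, both higher, where 20.0% of all genes were called and 8.87% were called higher. In TCR+PI3Kdi against TCR 1 of 5 was called, lower, against 1.88% of all genes in either direction and 1.38% lower. In TCR+MEKi against TCR 1 of 5 was called, higher, against 3.49% in either direction and 0.980% higher. TCR+MEKi against TCR+PI3Kdi also called 1, higher, against 3.09% in either direction and 1.39% higher. Against unstimulated cultures, TCR+PI3Kdi called 1 of 5, higher (14.6% of all genes, 7.16% higher), and TCR+MEKi called 2 of 5, both higher (13.4%, 6.95% higher). The called gene or genes were Jag1, Rbpj or both in every one of these comparisons. The first 3 comparisons share the TCR cultures, and those against unstimulated cultures share the latter, so the 6 results are not independent of each other.

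**Figure D1:**
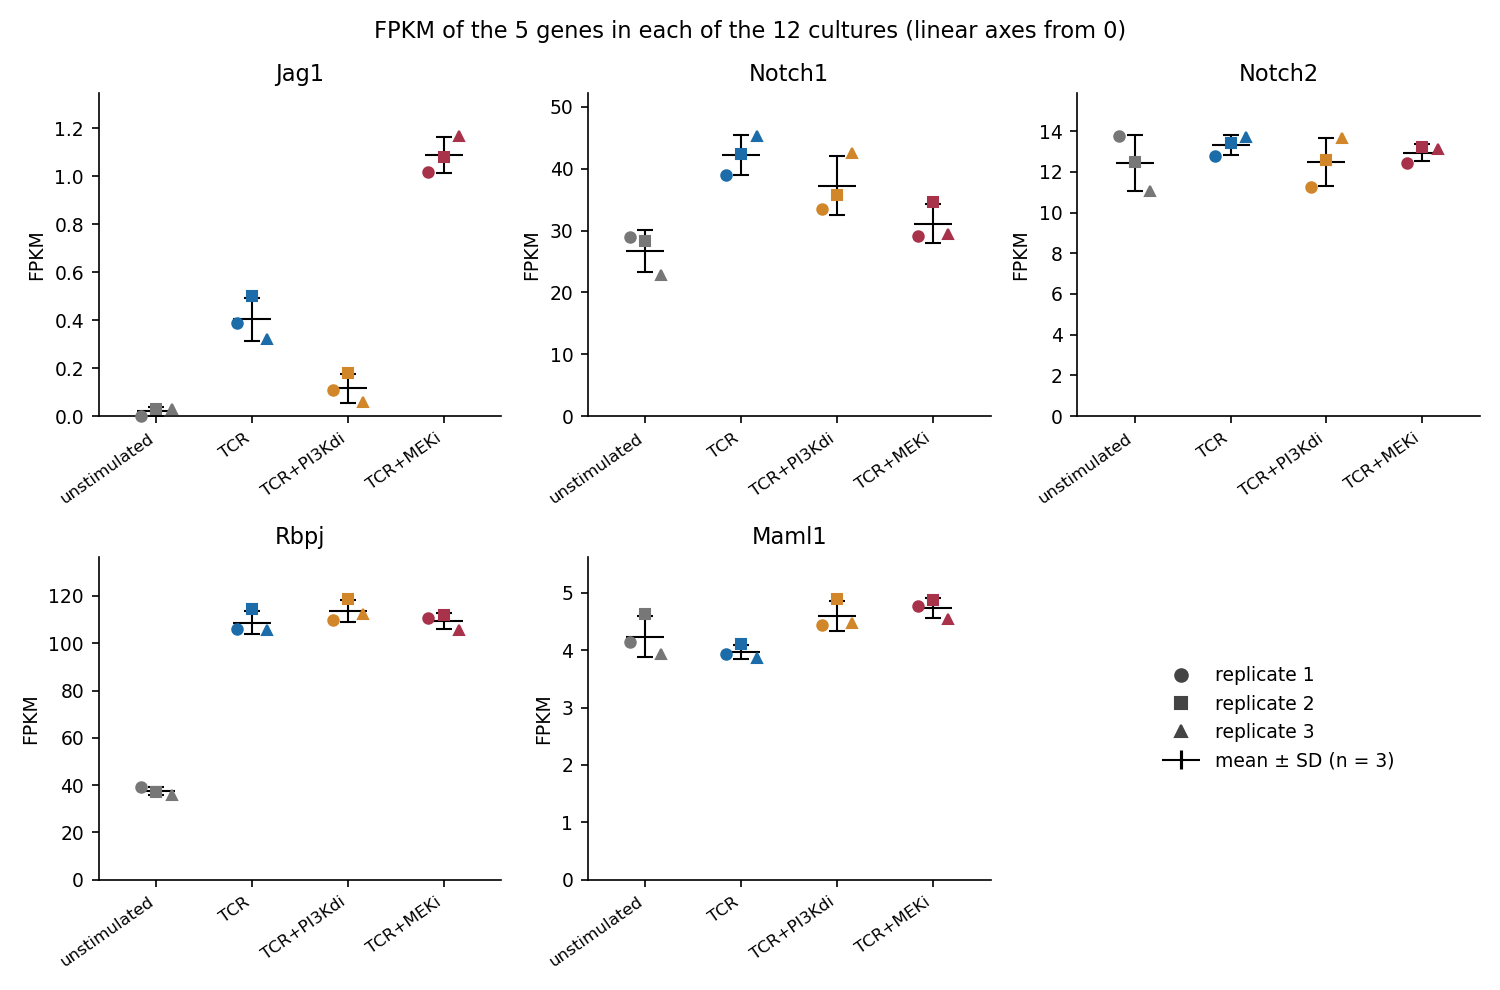
FPKM of Jag1, Notch1, Notch2, Rbpj and Maml1 in each of the 12 cultures, with 1 panel per gene, 1 point per culture and the mean ± SD of 3 cultures. Jag1 alone differs between all 4 groups without overlap, Rbpj separates unstimulated from the other 3 groups, and Notch2 overlaps throughout.

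Jag1, the gene of the ligand Jagged1, was at or below 3 approximate reads in every unstimulated culture, with 0.00, 0.03 and 0.03 FPKM in replicates 1 to 3. After peptide it was at 0.39, 0.50 and 0.32 FPKM, which corresponds to about 17.6 to 27.8 reads per culture. With IC87114 it was at 0.11, 0.18 and 0.06 FPKM, or about 4.0 to 10.0 reads. With PD184252 it was at 1.02, 1.08 and 1.17 FPKM, or about 45.2 to 59.9 reads. The 4 groups did not overlap, and their order was unstimulated, TCR+PI3Kdi, TCR and TCR+MEKi. Even in the highest group Jag1 remained a scarce transcript, with 11.7% of the genes in the table below it. In the unstimulated group 0.6% of genes lay below it.

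Because the unstimulated cultures were at the limit of counting, the response of Jag1 to antigen is given as a bound, taken against 3 reads in a culture. Mean Jag1 FPKM was at least 7.86-fold higher in TCR than in unstimulated cultures, at least 21.2-fold higher in TCR+MEKi and at least 2.27-fold higher in TCR+PI3Kdi. On the log2(FPKM + 0.1) scale, which understates such changes, the difference between TCR and unstimulated cultures was 2.06 ± 0.25 (SE, adjusted p = 3.08e-06). TCR+PI3Kdi cultures exceeded unstimulated ones by 0.83 ± 0.25 (adjusted p = 0.00953), a rise under the 2-fold limit, and by 2.33 in a fit to approximate reads, where it was called. Jag1 had entered the table through its reads in TCR and TCR+MEKi cultures, so a difference from unstimulated cultures was partly set by its presence.

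The effects of the inhibitors on Jag1 ran in opposite directions. Mean Jag1 FPKM in TCR+PI3Kdi cultures was 0.289 times that in TCR cultures, a log2 difference of -1.24 ± 0.25 (adjusted p = 0.00215), and it was lower in 3 of 3 same-numbered pairs. Mean Jag1 FPKM in TCR+MEKi cultures was 2.7 times that in TCR cultures, a log2 difference of 1.25 ± 0.25 (adjusted p = 0.00124), and it was higher in 3 of 3 pairs. Both pair counts follow from groups that did not overlap and add no support to these effects. The direct comparison of the inhibitor groups, which tests the difference of these effects, gave 9.34 times more Jag1 FPKM in TCR+MEKi and a log2 difference of 2.49 ± 0.25 (adjusted p = 3.76e-06). With 1 in place of 0.1 added to FPKM, the log2 differences against TCR were -0.33 and 0.58. Both then kept an adjusted p under 0.05 but not a 2-fold size. Because Jag1 had entered the table through TCR and TCR+MEKi reads, its lower values in TCR+PI3Kdi cultures were also partly set by its presence.

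**Figure D2:**
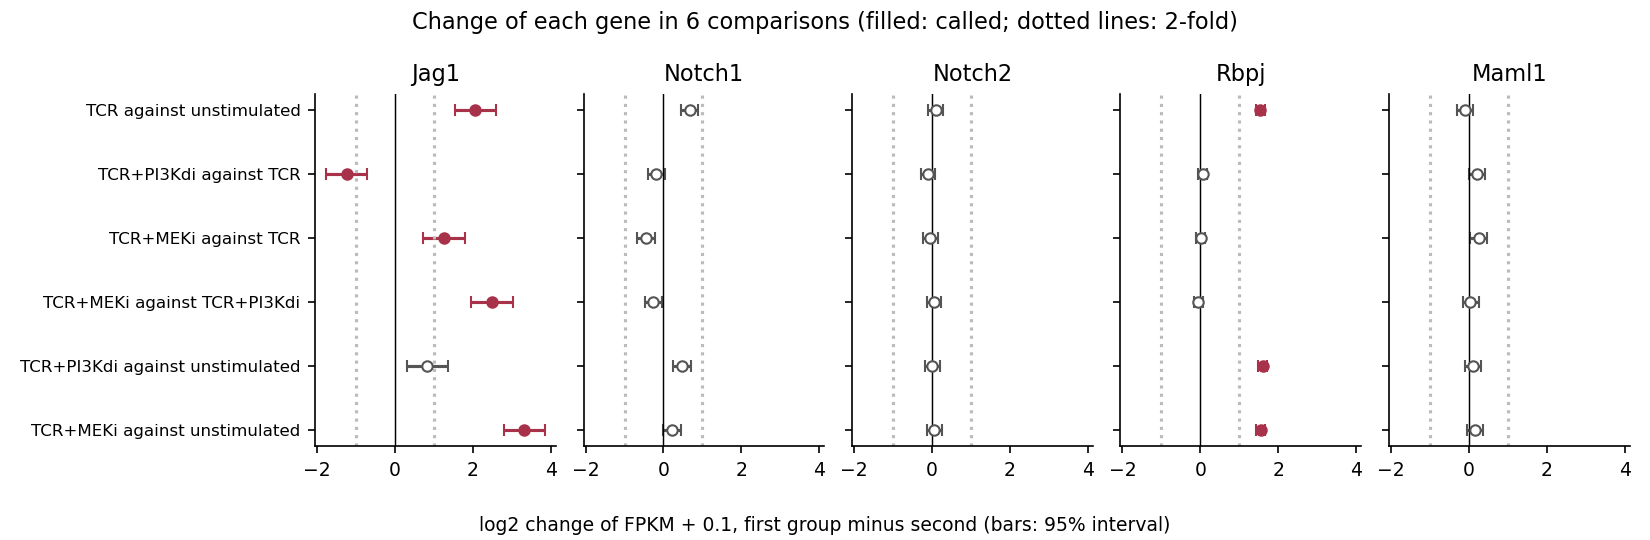
Log2 change of FPKM + 0.1 for each of the 5 genes (panels) in 6 comparisons (rows), as the first group minus the second, with 95% intervals. Filled points were called. Jag1 is the only one of the 5 with called changes on both sides of 0, and Rbpj shows changes near 1.5 against unstimulated cultures and near 0 between stimulated groups.

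Of 7 listed Notch ligands, Jag2 and Dll4 were the others with a row in the table. Jag2, which encodes the second Jagged ligand, was at 1.36, 1.11 and 0.91 FPKM in unstimulated cultures and at 0.63, 0.47 and 0.65 in TCR cultures. It was at 0.91, 0.65 and 0.65 FPKM with IC87114 and at 1.66, 1.42 and 1.35 with PD184252. Jag2 thus fell after peptide, opposite to Jag1, by 0.84 on the log2 scale (adjusted p = 0.00129, under the 2-fold limit). It shared with Jag1 a called rise with PD184252 over TCR alone, of 1.21 ± 0.19 (adjusted p = 0.000222), and its difference with IC87114 was 0.29 ± 0.19 (adjusted p = 0.295). With 1 added to FPKM the rise of Jag2 with PD184252 was 0.65 and was not called. Jagged transcripts of both kinds were highest with the MEK inhibitor, although Jag2 there overlapped the unstimulated group.

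Dll4, which encodes the ligand Delta-like 4, was listed at 0 in every unstimulated culture. It was at 0.42, 0.35 and 0.50 FPKM in TCR cultures, or at most 18.4 approximate reads. With IC87114 it was at 0.03, 0.00 and 0.02 FPKM, at or below 3 approximate reads in each culture. With PD184252 it was at 0.22, 0.15 and 0.22 FPKM. Mean Dll4 FPKM was at least 5.24-fold lower in TCR+PI3Kdi than in TCR cultures, and 0.465 times the TCR level in TCR+MEKi cultures (log2 difference -0.82 ± 0.24, adjusted p = 0.0166, under the 2-fold limit). The authors removed genes with low counts, and Dll4 was highest in TCR cultures, so where it passed that filter through those cultures, lower values in the other groups were partly set by its presence. Its log2 differences with peptide and with IC87114 were 0.51 and -0.48 with 1 added to FPKM. Jag1 and Dll4 were both low with IC87114, and with PD184252 Jag1 was above and Dll4 below the TCR level, with this limit on Dll4. All 3 ligands rest on at most 77.6 approximate reads per culture.

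**Figure D3:**
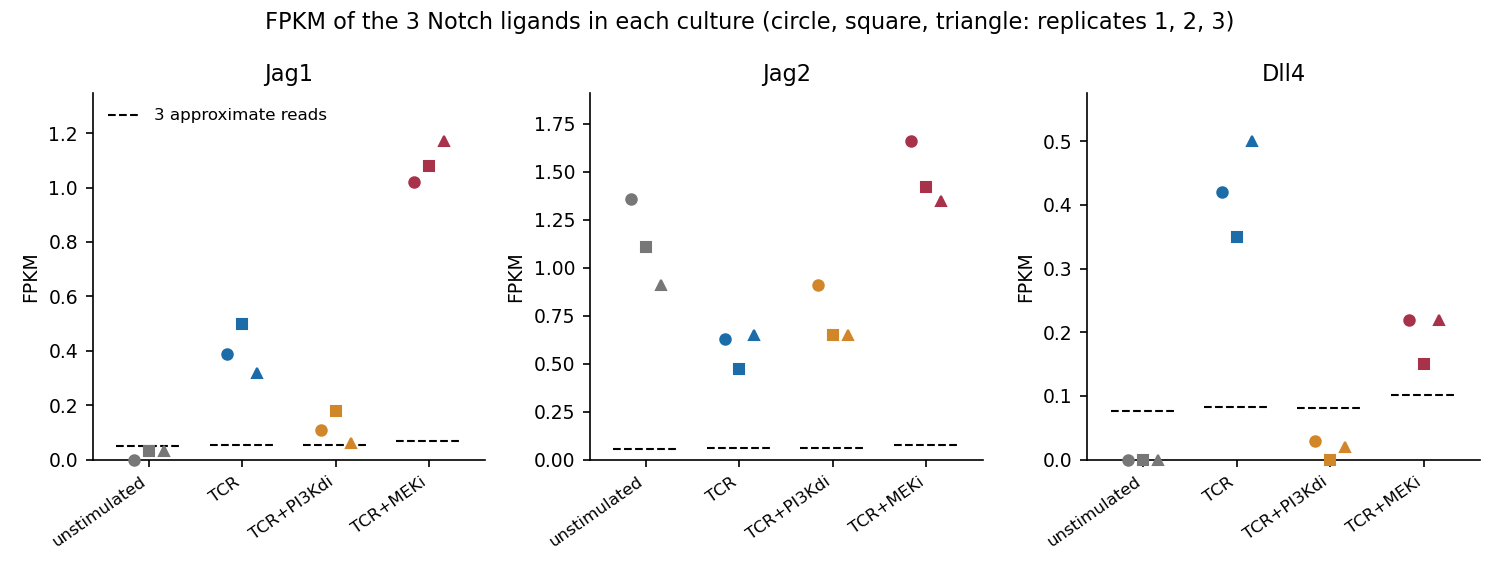
FPKM of the ligands Jag1, Jag2 and Dll4 in each culture, with dashed lines at the FPKM of 3 approximate reads in the shallowest culture of each group. Unstimulated Jag1 and Dll4, and Dll4 with IC87114, lie under the line, and the TCR+MEKi cultures are the highest for Jag1 and highest on average for Jag2 but not for Dll4.

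Notch1, a receptor known from early T cell development and found on activated T cells, was at 28.94, 28.30 and 22.77 FPKM in unstimulated cultures. It was at 38.95, 42.34 and 45.36 FPKM after peptide. With IC87114 it was at 33.41, 35.73 and 42.60 FPKM, and with PD184252 at 29.08, 34.70 and 29.50. The TCR cultures lay above every unstimulated and every TCR+MEKi culture, while the TCR+PI3Kdi cultures overlapped those of TCR, although Notch1 was lower with IC87114 in 3 of 3 same-numbered pairs. Notch1 rose after peptide by 0.67 ± 0.11 on the log2 scale (adjusted p = 5.63e-05), where 68.6% of all genes passed the adjusted p alone. With PD184252 it fell by 0.44 from the TCR level (adjusted p = 0.00493, which 37.1% of all genes passed). Its differences of -0.19 (95% interval -0.41 to 0.04) with IC87114 against TCR and of 0.22 (-0.00 to 0.45) with PD184252 against unstimulated cultures did not pass the test. With replicate number as a block, the difference with IC87114 had an adjusted p of 0.215. With IC87114, Notch1 still exceeded the unstimulated level by 0.48 ± 0.11 (adjusted p = 0.00119, with 62.5% of all genes under 0.05). When each sample was rescaled to a common sum of FPKM (the TPM scale), the rise after peptide was 0.25 (adjusted p = 0.0669) and the fall with PD184252 was -0.18 (adjusted p = 0.212). That scaling shifts all genes by nearly the same amount, and it moved the median of all genes to -0.41 and 0.26. As deposited, the median of all genes was -0.01 with peptide and 0.01 with PD184252. Notch1 thus stood nearly as far from the median gene on both scales, as a shift common to all genes must leave it. The size of either change from 0 depended on the scale, and which scale fits the cells was not tested.

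Notch2, the other receptor in the table, hardly varied. It was at 13.78, 12.46 and 11.07 FPKM in unstimulated cultures and at 12.78, 13.41 and 13.73 after peptide. It was at 11.26, 12.56 and 13.64 FPKM with IC87114 and at 12.45, 13.24 and 13.12 with PD184252. All groups overlapped. The log2 difference between TCR and unstimulated cultures was 0.10 (95% interval -0.09 to 0.29, adjusted p = 0.319), and on the TPM scale it was -0.31, with its sign reversed. Against TCR, Notch2 differed by -0.09 with IC87114 (interval -0.28 to 0.09) and by -0.04 with PD184252 (interval -0.23 to 0.15). A 2-fold change lay outside each of these intervals.

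The ratio of Notch1 to Notch2 FPKM within a culture does not depend on how libraries are scaled. It was 2.10, 2.27 and 2.06 in unstimulated cultures and 3.05, 3.16 and 3.30 in TCR cultures. It was 2.97, 2.84 and 3.12 with IC87114 and 2.34, 2.62 and 2.25 with PD184252. Every TCR culture had a higher ratio than every unstimulated one. The mean log2 ratio was 1.66 ± 0.06 in TCR against 1.10 ± 0.08 in unstimulated cultures (SD, n = 3). With PD184252 the mean log2 ratio was 1.26 ± 0.12, below TCR without overlap. Both differences, 0.57 and -0.40, had an exact two-sided permutation p of 0.1, the smallest that 3 against 3 cultures allow, and 0.15 after adjustment over the 6 comparisons. With IC87114 the mean log2 ratio differed from TCR by -0.09 (exact permutation p = 0.2), and these groups overlapped, although the ratio was lower with IC87114 in 3 of 3 same-numbered pairs.

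**Figure D4:**
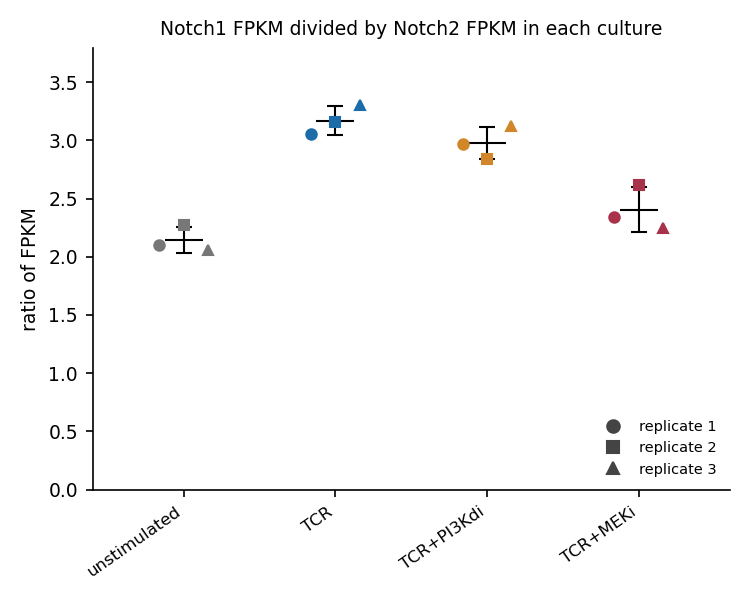
Ratio of Notch1 to Notch2 FPKM in each of the 12 cultures, with the mean ± SD of 3 cultures per group. TCR and TCR+PI3Kdi cultures lie between 2.84 and 3.30, above the unstimulated and TCR+MEKi cultures, which lie between 2.06 and 2.62.

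Rbpj, which encodes the DNA-binding protein on which all Notch receptors converge, was the most abundant of the 5 transcripts and the one with the tightest response. It was at 39.09, 37.17 and 35.82 FPKM in unstimulated cultures and at 105.99, 114.29 and 105.71 after peptide. With IC87114 it was at 109.66, 118.67 and 112.23 FPKM, and with PD184252 at 110.52, 111.97 and 105.61. Every stimulated culture was above every unstimulated one, and the 3 stimulated groups overlapped. Rbpj rose after peptide by 1.54 ± 0.05 on the log2 scale (adjusted p = 2.85e-12), by 1.60 ± 0.05 with IC87114 present and by 1.55 ± 0.05 with PD184252 present. Against TCR alone the differences were 0.06 with IC87114 (95% interval -0.05 to 0.18) and 0.01 with PD184252 (interval -0.11 to 0.12). After peptide 93.0% of all genes had a lower mean FPKM, compared with 80.7% before.

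Maml1, which encodes a co-activator of the RBPJ complex, was at 4.15, 4.63 and 3.93 FPKM in unstimulated cultures and at 3.93, 4.10 and 3.86 after peptide. It was at 4.43, 4.89 and 4.47 FPKM with IC87114 and at 4.77, 4.88 and 4.55 with PD184252. The TCR cultures were the lowest of the stimulated ones, without overlap. Maml1 differed between TCR and unstimulated cultures by -0.09 (95% interval -0.30 to 0.11, adjusted p = 0.412). It differed from TCR by 0.21 with IC87114 (interval 0.00 to 0.41, adjusted p = 0.127) and by 0.25 with PD184252 (interval 0.04 to 0.46, adjusted p = 0.0535). With replicate number as a block the last of these had an adjusted p of 0.0401, and on the TPM scale it was 0.51 (adjusted p = 0.0016). It stayed under 2-fold in each.

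Ordered by FPKM, the 5 transcripts ran Rbpj, Notch1, Notch2, Maml1 and Jag1 in all 4 groups. Neighbours in this order did not overlap in any group. The closest as a ratio were Rbpj and Notch1 in unstimulated cultures, where Rbpj was at 37.4 ± 1.64 and Notch1 at 26.7 ± 3.39 FPKM (SD, n = 3). The transcripts of the transducing machinery were thus present in every culture, and the ligand Jag1 was the rare and variable member.

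The other genes of the pathway were described from lists grouped by role, and 56 of 74 listed genes had a row in the table. After peptide 10 of these 56 were called higher and 5 lower, where 20.0% of all genes were called and 8.87% were called higher, with a median log2 change of 0.02 against -0.01 for all genes. With IC87114 against TCR 2 were called higher and 2 lower (1.88% of all genes called), and with PD184252 1 higher and 2 lower (3.49%), with medians of 0.02 and 0.04 against 0.02 and 0.01 for all genes. Of 5 enzymes that glycosylate Notch none was called in these comparisons. At an adjusted p under 0.05 alone, 2 were higher and 3 lower after peptide, where 68.6% of all genes passed. With PD184252 against TCR 2 were higher and 1 lower, where 37.1% of all genes passed. All these changes were under 2-fold. Of 9 genes for proteolytic processing 1 was called higher and 1 lower after peptide, and 1 higher and 1 lower with IC87114. Aph1b, a γ-secretase component, fell outside the rule for named genes and was chosen after its values were seen. It went from 0.597 to 0.193 mean FPKM with peptide (log2 change -1.23, adjusted p = 6.4e-05). With IC87114 Aph1b was at 0.49 (1.01 from TCR, adjusted p = 0.00198), barely past the 2-fold limit. In TCR cultures Aph1b rested on about 8.6 to 10.7 reads each. Where it passed the low-count filter through the groups in which it was high, the lower TCR values were partly set by its presence. The gene called higher after peptide was Furin, the convertase that cleaves the Notch precursor among many other substrates, which rose from 47.1 ± 6.1 to 370 ± 26.3 FPKM (log2 change 2.98 ± 0.09, adjusted p = 3.87e-13). Furin was lower with IC87114, at 174 ± 13.6 FPKM, by 1.09 on the log2 scale (adjusted p = 1.09e-06), and like Jag1 it was called lower there, though Furin was within 2-fold when scaled as TPM or by quantiles. With PD184252 Furin was at 258 ± 10.6 FPKM, on the other side of the TCR level from Jag1.

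Among 14 genes for endocytosis and ubiquitin ligases 3 were called higher and 3 lower after peptide, against 20.0% of all genes called and 8.87% called higher. Mib2, a ligase that acts on Notch ligands, went from 4.69 to 11 mean FPKM, Dtx2 from 4.16 to 9.09 and Dtx4 from 0.493 to 1.92. Dtx3l, a Deltex relative, went from 22.5 to 6.22 mean FPKM, and Aak1, an endocytic kinase, from 8.62 to 3.48. The other gene called lower was Neurl1b, a Neuralized relative, which went from 0.69 to 0.11 mean FPKM. In TCR cultures Neurl1b rested on about 6.0 to 8.0 reads each. Neurl1b lay outside the rule for named genes and was chosen after its values were seen. Where it passed the low-count filter through the unstimulated cultures, its fall was partly set by its presence. Neurl3, a Neuralized relative, was not called after peptide but was called with IC87114, from 19.9 mean FPKM in TCR to 42.4 (log2 change 1.09 ± 0.08, adjusted p = 3.55e-07). On the TPM scale the rises of Mib2 and Dtx2 were 0.79 and 0.70, under 2-fold, and with 1 added to FPKM those of Dtx2 and Dtx4 were 0.96 and 0.98.

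In the nuclear activator complex 2 of 9 genes were called after peptide, both higher, against 20.0% of all genes called and 8.87% called higher. These were Rbpj, already counted above, and Maml2. Maml2, a relative of Maml1, was at 0.62, 0.37 and 0.36 FPKM in unstimulated cultures and at 2.59 ± 0.166 (SD, n = 3) after peptide. With IC87114 Maml2 was at 1.79, 1.84 and 1.89 FPKM, and with PD184252 at 0.89, 1.00 and 1.07. Maml2 rose by 2.32 ± 0.17 with peptide (adjusted p = 1.68e-08) and fell with PD184252 by 1.31 from the TCR level (adjusted p = 4.68e-05), while Maml1 was not called in either comparison. With 1 added to FPKM the fall of Maml2 was -0.85 and was not called. Of 10 co-repressors of RBPJ none was called in these 3 comparisons.

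Of 9 listed canonical Notch targets 1 was in the table. Nrarp, which encodes a feedback inhibitor of the Notch activator complex, was at 1.21, 1.19 and 1.02 FPKM in unstimulated cultures and at 0.44, 0.39 and 0.20 after peptide. It was at 0.58, 0.24 and 0.49 FPKM with IC87114 and at 0.69, 0.69 and 0.89 with PD184252. Nrarp fell after peptide by 1.53 on the log2 scale (adjusted p = 0.000145), whereas Rbpj, Notch1 and Jag1 rose. Where Nrarp passed the low-count filter through the unstimulated cultures, in which it was highest, this fall was partly set by its presence. With 1 added to FPKM the fall of Nrarp was -0.68 and was not called. With PD184252 it was above the TCR level by 0.99 ± 0.27 (adjusted p = 0.0105), just under 2-fold, and by 1.19 on the TPM scale, where it was called. Of 8 genes linked to Notch in T cells, which also answer to other signals, 4 were called higher after peptide, against 8.87% of all genes. These were Myc, Tbx21, Prf1 and Ifng, and Ifng had the largest log2 change of the 4 (8.67 ± 0.09). Tbx21, which encodes the effector regulator T-bet, went from 13.6 to 53 mean FPKM with peptide and was at 24.2 with PD184252 (log2 change from TCR -1.12 ± 0.11, adjusted p = 2.49e-06). On the TPM scale the changes of Myc and Prf1 after peptide and of Tbx21 with PD184252 were under 2-fold.

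**Figure D5:**
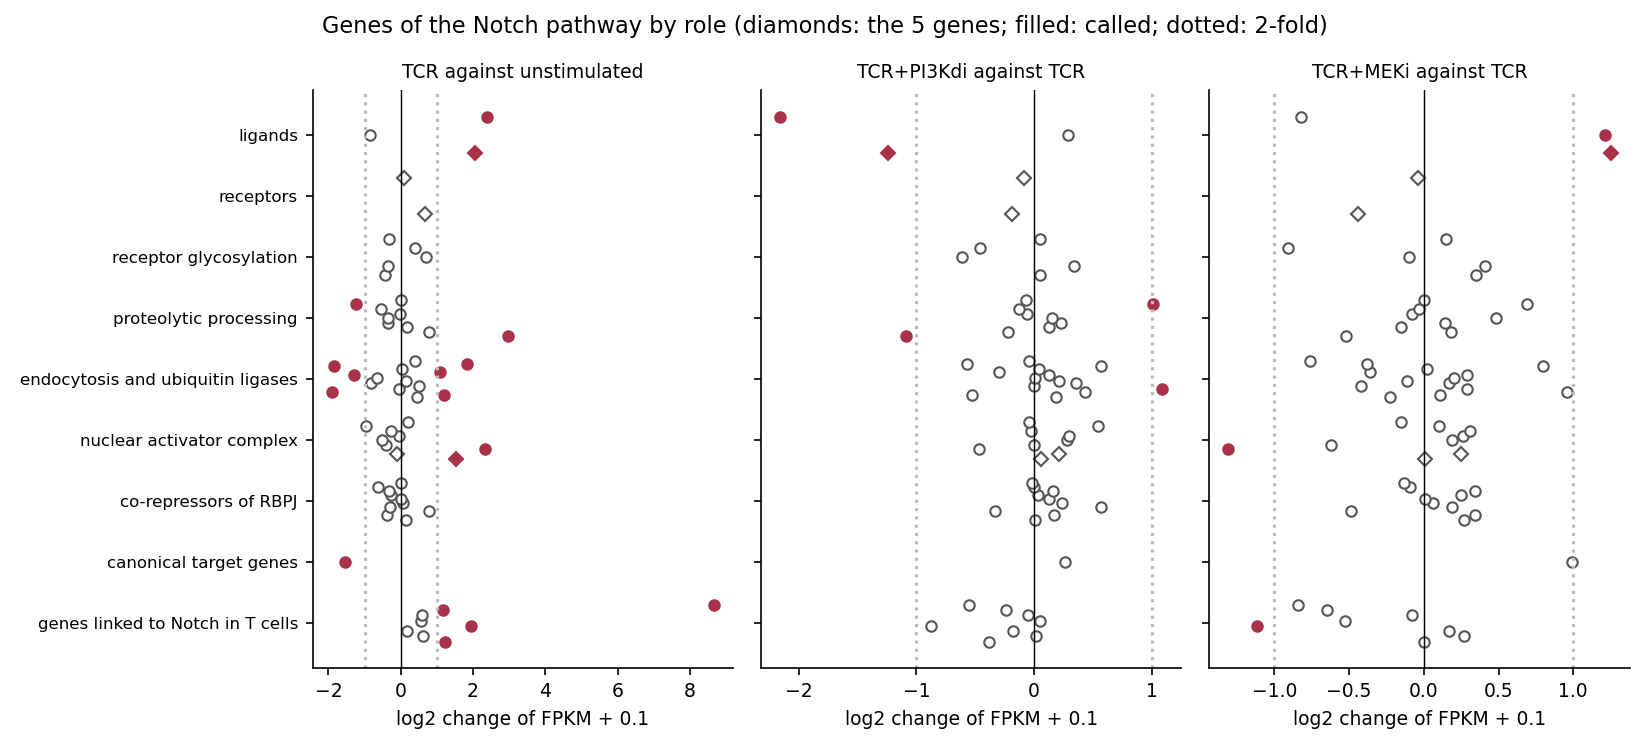
Log2 change of FPKM + 0.1 of every listed Notch pathway gene in the table, by role, in 3 comparisons, with the 5 genes as diamonds and called genes filled. Changes of ligands, processing and ubiquitin ligase genes spread past the dotted 2-fold lines after peptide, while receptors, glycosylation enzymes and co-repressors of RBPJ lie inside them in all 3 panels.

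The genes whose log2(FPKM + 0.1) ran most like each of the 5 over the 12 cultures were sought among 10232 genes with a mean of at least 1 FPKM in some group. For Jag1 these were Trim35, Map4k4 and Psat1 (Pearson r 0.975, 0.975 and 0.974). Psat1, an enzyme of serine synthesis, was at 114, 154, 133 and 169 mean FPKM in the unstimulated, TCR, TCR+PI3Kdi and TCR+MEKi groups, the same order as Jag1 at a far higher level. For Notch1 they included Sec24c (0.977) and Trim66 (0.953). Sec24c, a component of the COPII vesicle coat, was at 51.5, 62.6, 60.3 and 56.5 mean FPKM in the same group order. For Rbpj they were Srgap3, Plek and Serpinb9b (0.996 each), all low before peptide and close to level among the stimulated groups. For Notch2 they were Ubap2 (0.872), Gga3 (0.818) and Sf1 (0.814), and for Maml1 Dcaf11 (0.911), Hdac4 (0.903) and Alkbh5 (0.891). Notch2 and Maml1 varied little between groups, so that spread within groups weighs heavily in these values. The correlations share libraries and groups and are given as descriptions.

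The spacing of low FPKM values put the depth at about 7900000 to 13250000 reads per culture, and log2 values of replicates correlated at r of 0.992 to 0.995 across genes, which are not independent replicates. Of 7 CTL markers 6 were in the table, with summed levels from 9752 to 16134 FPKM per culture. Of 15 markers of other cells (helper T, B, myeloid, dendritic, natural killer, endothelial and red cells) 4 were in the table, namely Cd4, Itgax, Cd74 and Klrb1c, and B cell, macrophage and endothelial markers had no row. Their summed level was 6.79 to 8.61 FPKM in unstimulated, 11.6 to 12.7 in TCR, 6.62 to 8.94 in TCR+PI3Kdi and 5.32 to 8.17 in TCR+MEKi cultures. The sum was lower in TCR+PI3Kdi and in TCR+MEKi than in TCR cultures. The markers moved differently within this sum, so it stands for no single cell type. Cd74, an antigen presentation gene, was at 1.35, 7.22, 2.25 and 4.13 mean FPKM in the unstimulated, TCR, TCR+PI3Kdi and TCR+MEKi groups, in the same group order as Dll4, and was called higher with peptide (2.46) and lower with IC87114 (-1.68). Itgax was at 0.41, 0.53, 0.577 and 0.41 mean FPKM in the same groups, did not follow that order and was not called in any comparison. Klrb1c went from 5.39 to 1.79 mean FPKM with peptide, and Cd4 from 2.69 in TCR to 0.45 with PD184252. The part of other cells in the Jag1 and Dll4 levels was not tested. In these bulk cultures fewer expressing cells and less RNA per cell cannot be told apart.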

How the data were processed

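Polyadenylated RNA of 12 P14 CTL cultures (4 groups of 3 biological replicates from 3 mice) was sequenced. Per the labels and methods, the authors aligned reads to mm10 with STAR 2.4.2a, counted them per RefSeq gene with Subread 1.5.0, removed genes with low counts, scaled by TMM in edgeR and deposited FPKM rounded to 2 decimals for 11022 genes; the settings for strand are not stated. Columns of per-sample values without a sample numbered 0. The counts on which the study ran limma were not used here.

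Here log2(FPKM + 0.1) of all genes and cultures was fitted with limma 3.58.1 in R 4.3.3 (1 mean per group, trend, Benjamini-Hochberg), without a replicate block. Genes were called at an adjusted p under 0.05 with over 2-fold change. The members, lists and tests were chosen with earlier results of these data known, so adjusted p-values are not independent evidence for them. Named genes were the 5 members, every listed ligand and receptor, listed genes called with peptide or with an inhibitor against TCR at a mean of at least 1 FPKM in a compared group, and the 3 genes most correlated with each member, of which 1 is not reported here. The other genes named for markers follow the marker lists.

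Depth was estimated from low FPKM values and exon lengths. Of 104 to 351 low values per culture, 61.9% to 72.3% were whole reads to within 0.15 (30% expected by chance), so reads are approximate, and floors (3 reads) cover counting error only. Same-numbered cultures deviated together (lowest pair r 0.12 to 0.24) in the comparisons among stimulated groups and between TCR+MEKi and unstimulated cultures, but not between unstimulated cultures and TCR (0.00) or TCR+PI3Kdi (-0.06); whether a number marks a mouse is not stated. The fit was tested on simulated data. Alternatives were other pseudocounts, a level filter, TPM and quantile scaling, the replicate block, leaving out each culture, and, chosen after seeing the data, limma voom on approximate reads. Python 3.11.15, NumPy 2.4.6, pandas 2.3.3, SciPy 1.17.1 and Matplotlib 3.10.9 were used.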

Additional observations from a re-analysis of the deposited data

Results flagged for a closer look

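Jag1 stood out because the inhibitors moved it in opposite directions from the TCR level. The direct comparison of TCR+MEKi with TCR+PI3Kdi cultures, which tests the difference of both effects, gave a log2 difference of 2.49 (limma, adjusted p = 3.76e-06), and the lowest TCR+MEKi culture (1.02 FPKM) was above the highest TCR+PI3Kdi culture (0.18 FPKM). Jag1 had entered the table through its reads in TCR and TCR+MEKi cultures, so this difference was partly set by its presence. Groups of 3 cultures were too small to be searched for outlying samples.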

How the results depend on the processing

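Of 564 alternative values for the 5 genes, 541 kept direction and call, 4 lost the call, 3 gained it and 16 changed sign. Adding 1 to FPKM took Jag1 under 2-fold in TCR against unstimulated (0.46), TCR+PI3Kdi against TCR (-0.33), TCR+MEKi against TCR (0.58) and TCR+MEKi against TCR+PI3Kdi (0.91), with adjusted p from 4.9e-07 to 0.00454. It also cut the numbers of genes called, to 1405 from 2202, 90 from 207, 201 from 385, 150 from 341, 979 from 1608 and 873 from 1478 in the 6 comparisons in the order of the report. Jag1 in TCR+PI3Kdi against unstimulated was called with 0.01 added (2.21), without TCR+PI3Kdi replicate 3 (1.03, range 0.62 to 1.03 over left-out cultures) and with voom (2.33). The TPM scale turned Notch2 to -0.31, -0.22 and -0.09 in TCR, TCR+PI3Kdi and TCR+MEKi against unstimulated, and to 0.09 and 0.22 with IC87114 and PD184252 against TCR, turned Rbpj between the inhibitors to 0.03, and turned Maml1 in TCR+PI3Kdi against unstimulated to -0.11. Quantile scaling turned Maml1 with peptide to 0.01 and Notch2 in TCR+PI3Kdi against unstimulated to -0.01. Apart from the Jag1 call above, leaving out a culture changed only signs of differences near 0: Rbpj with PD184252 against TCR (-0.01 to 0.05), and Notch2 in TCR+MEKi against TCR+PI3Kdi (-0.02 to 0.12), TCR+PI3Kdi against unstimulated (-0.07 to 0.08) and TCR+MEKi against unstimulated (-0.02 to 0.14). The filter at a mean of 1 FPKM left Jag1 without a value. The TPM scale moved the share of called genes that were higher from 44.4% to 22.1% with peptide, from 26.6% to 52.7% with IC87114 and from 28.1% to 61.5% with PD184252 against TCR, from 49.1% to 32.9% in TCR+PI3Kdi and from 51.8% to 39.7% in TCR+MEKi against unstimulated.

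With replicate number as a block, 2206 genes were called with peptide, 209 with IC87114 and 389 with PD184252 against TCR, and no call of the 5 genes changed. The mean paired difference in the log2 ratio of Notch1 to Notch2 was 0.57 with peptide. The depth limits Jag1, Jag2, Dll4, Nrarp, Aph1b and Neurl1b, which rest on at most 77.6 approximate reads per culture. Causes of the changes under alternatives were not tested.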
